A study of Mus musculus with 10 samples.

Results

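The genes of collagens and of the stromal extracellular matrix were compared in the uterus at gestation day (GD) 3.5 between 2 genotypes, namely Ltf iCre/+ Arid1a f/f females, called cKO below, and control females that are Arid1a f/f. The 42 genes were chosen by name among the 45706 genes listed in the count table, from knowledge of the matrix and with earlier results of these data known. The 42 all had enough reads to be among the 25146 genes tested. They fall into 8 groups, namely 6 fibrillar collagens, 8 basement membrane collagens, 8 other collagens, 6 small leucine-rich proteoglycans, 5 elastic fibre genes, 3 cross-linking oxidases, 3 matricellular genes and 3 genes that mark mesenchymal cells.

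Pieces of uterus from 5 control and 5 cKO females were sequenced as mRNA, before embryos attach. Both genotypes carry floxed alleles of Arid1a, which encodes a DNA-binding subunit of the SWI/SNF chromatin remodeling complex, on a mixed background of C57BL/6, 129S6/SvEvTac, 129P2/OlaHsd and 129S1/SvImJ. The cKO females also carry 1 allele of the lactoferrin gene Ltf that expresses iCre. This driver is active in the endometrial epithelium of mature adult females, and Ltf is also a gene of neutrophils, so the fibroblasts, muscle and vessel cells that make most of the matrix genes described here are not its intended target, and controls carry no Cre. The labels number the uteri within a genotype and give no other detail of the animals, so p-values measure the spread between these samples.

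The extracellular matrix of the uterus has a fibrous part in the stroma and muscle and thin sheets, the basement membranes, beneath epithelia and around vessels and smooth muscle cells. Fibrillar collagens of types I, III and V form the cables, small leucine-rich proteoglycans such as decorin sit on their surface and space them, and lysyl oxidases cross-link them. Basement membranes are built on networks of type IV collagen joined to laminins by nidogens, while elastin deposited on fibrillin microfibrils gives recoil. Around implantation the mouse endometrium takes this scaffold apart and rebuilds it as stromal cells turn into decidua.

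Library depth ranged from 59296537 to 72702411 counts, and the scarcest gene of the set still had 54 counts in its lowest library. Expression is given in CPM, a gene's counts relative to the library total after TMM normalization. Arid1a itself stood at 213 ± 22.9 CPM in controls and 185 ± 15.9 CPM in cKO uteri (SD, n = 5 each), at a log2 fold change of -0.20 that did not pass the threshold (SE 0.09, adjusted p = 0.201). Its count covers the whole gene in all cell types and is therefore a weak check of an epithelial deletion. Ltf ranged from 2.23 to 11.7 CPM in controls and from 23.6 to 2831 CPM in cKO uteri. Among the cKO libraries, 1 and 5 stood apart, since pairs with either of them differed by a chi-square of at least 164 per gene and pairs among the other 3 by at most 93.7. Where leaving out both changed the call or the sign of a named matrix or marker gene, or moved its log2 fold change by over 1.5 times, the value without them is given beside it.

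In whole tissue, fewer cells of a type and less RNA per cell cannot be told apart. Lists of cell markers were therefore measured beside the matrix genes. Over all tested genes, 4.51% were called lower and 5.19% higher. All 7 endothelial markers were called lower in cKO uteri, and their summed level was 736.5 to 1059 CPM in controls and 362.3 to 536.7 CPM in cKO uteri, with Cdh5 (log2 fold change -1.26), Tek (-1.21) and Pecam1 (-0.93) leading. Of 5 pericyte markers 3 were called lower (Rgs5 -1.29, Notch3 -0.86, Abcc9 -0.72), and the sum was 911.3 to 1235 CPM against 413.6 to 625.1 CPM. Epithelial markers moved the other way, with 6 of 9 called higher, led by Krt7 (1.83), Epcam (1.20) and Cldn7 (1.10), and sums of 803 to 1079 CPM against 1175 to 2209 CPM. Without cKO libraries 1 and 5 these 3 stood at 0.91, 0.45 and 0.56, still called, and 6 of the 7 endothelial markers were called.
Of 8 endometrial stromal markers 0 were called in edgeR, with 1 lower at an unadjusted p under 0.05 and 1 by DESeq2, and their sum was 2708 to 3149 CPM in controls and 1268 to 2688 CPM in cKO uteri. Mme was the largest part of the control sum, at a mean of 1024 CPM, and had 117.4 and 136.0 CPM in cKO uteri 1 and 5. Its log2 fold change was -0.99 (adjusted p = 0.238), or -0.40 without both. The median of the 8 was -0.32, or -0.12 without both. The 8 myometrial markers likewise had 0 calls in edgeR, 1 lower at an unadjusted p under 0.05 and 1 by DESeq2, with sums of 6655 to 11600 CPM against 3486 to 9333 CPM. Every marker of these 5 lists had counts in each library. Of 6 gland markers 2 were called lower, Wfdc3 (-1.89) and Foxa2 (-1.13), with sums of 73.3 to 120.6 CPM against 7.72 to 51.7 CPM, and Prss29 was at 0 in some libraries of both genotypes. Neutrophil markers had 1 of 6 called higher, Ly6g (3.82), with at most 23.1 CPM in sum outside cKO uterus 5, which had 855.3 CPM. Without cKO libraries 1 and 5, Ly6g was at 1.24 and not called, and 5 of the 6 gland markers were called lower. Of 8 macrophage markers 0 were called in edgeR (3 higher at an unadjusted p under 0.05, 1 by DESeq2), with sums of 161.6 to 336.5 CPM against 285.1 to 703.1 CPM. Among 4 mesothelial markers Msln was called higher (0.96), with sums of 175.6 to 229.8 CPM against 164.2 to 274.0 CPM, and among 7 cell cycle genes Pcna (0.88) and Mcm2 (0.68) were called higher, with sums of 562.7 to 896.0 CPM against 627.6 to 1321 CPM. Most of the mesothelial sum was Wt1, at a mean of 177 CPM in controls and a log2 fold change of -0.175, or -0.03 without cKO libraries 1 and 5. Upk3b (0.66) and Lrrn4 (0.60) were higher without a call. The calls of Msln and Mcm2 were lost without cKO libraries 1 and 5 (log2 fold changes 0.77 and 0.47).

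The 42 genes together took 2.78% to 3.91% of all counts in controls and 2.33% to 3.60% in cKO uteri, ranges that overlap. Per kilobase of exon, the highest control levels were those of Sparc, a collagen-binding matricellular protein (682 ± 110 CPM per kb), Col3a1 (631 ± 153 CPM per kb) and Col1a1 (553 ± 144 CPM per kb, SD, n = 5), and these 3 did not differ by more than their spread. Next came Col6a1, the alpha 1 chain of beaded type VI collagen, at 386 ± 54.4 CPM per kb, and Col1a2 at 300 ± 79.5 CPM per kb. Decorin (Dcn) at 274 ± 33.9 CPM per kb and Col4a1 at 183 ± 45.0 CPM per kb followed within the first 10. The lowest were Col8a1 and Col17a1, at 0.546 and 0.356 CPM per kb. In cKO uteri Col1a1 held first place at 695 ± 273 CPM per kb, and decorin moved from place 6 to place 8. Exon length here is that of all annotated exons of a gene merged, which can exceed the length of its mRNA. It was 12.4 kb for Col1a2 and 6.56 kb for Col1a1, whose control means were 3722 and 3629 CPM. The order of genes therefore depends on the annotation as well as on expression.

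Of the 42 genes, 10 were called lower and 0 higher in cKO uteri by the quasi-likelihood test of edgeR, with p-values adjusted after Benjamini and Hochberg over all tested genes. The 10 lay outside the fibrillar collagens. The share called lower was 23.8%. Over all tested genes the share called was 9.7%, of which 4.51% were lower and 5.19% higher. At an unadjusted p under 0.05 there were 19 lower and 1 higher, Col8a1 of type VIII collagen, against 11.9% lower and 14.3% higher over all tested genes. DESeq2 called 17 lower and 0 higher, against 9.15% and 9.88% of the genes that it tested. For 13 genes, or 31.0%, the highest cKO value lay below the lowest control value, and for 0 the lowest cKO value lay above all controls. Of all tested genes 10.7% did not overlap, 5.16% with the cKO uteri lower. Since the 42 genes were chosen with earlier results of these data known, these shares describe the set and do not test it. The shares over all tested genes are also the ones to set beside the counts of the 8 groups below. The log2 fold changes ran from -1.19 to 1.07 with 31 below 0, and their median was -0.30, against 0.03 over all tested genes. Of the 25146 tested genes, 11894 were below 0. Without cKO libraries 1 and 5, 12 genes were called lower and 0 higher, and 35 log2 fold changes were below 0.

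**Figure D1:**
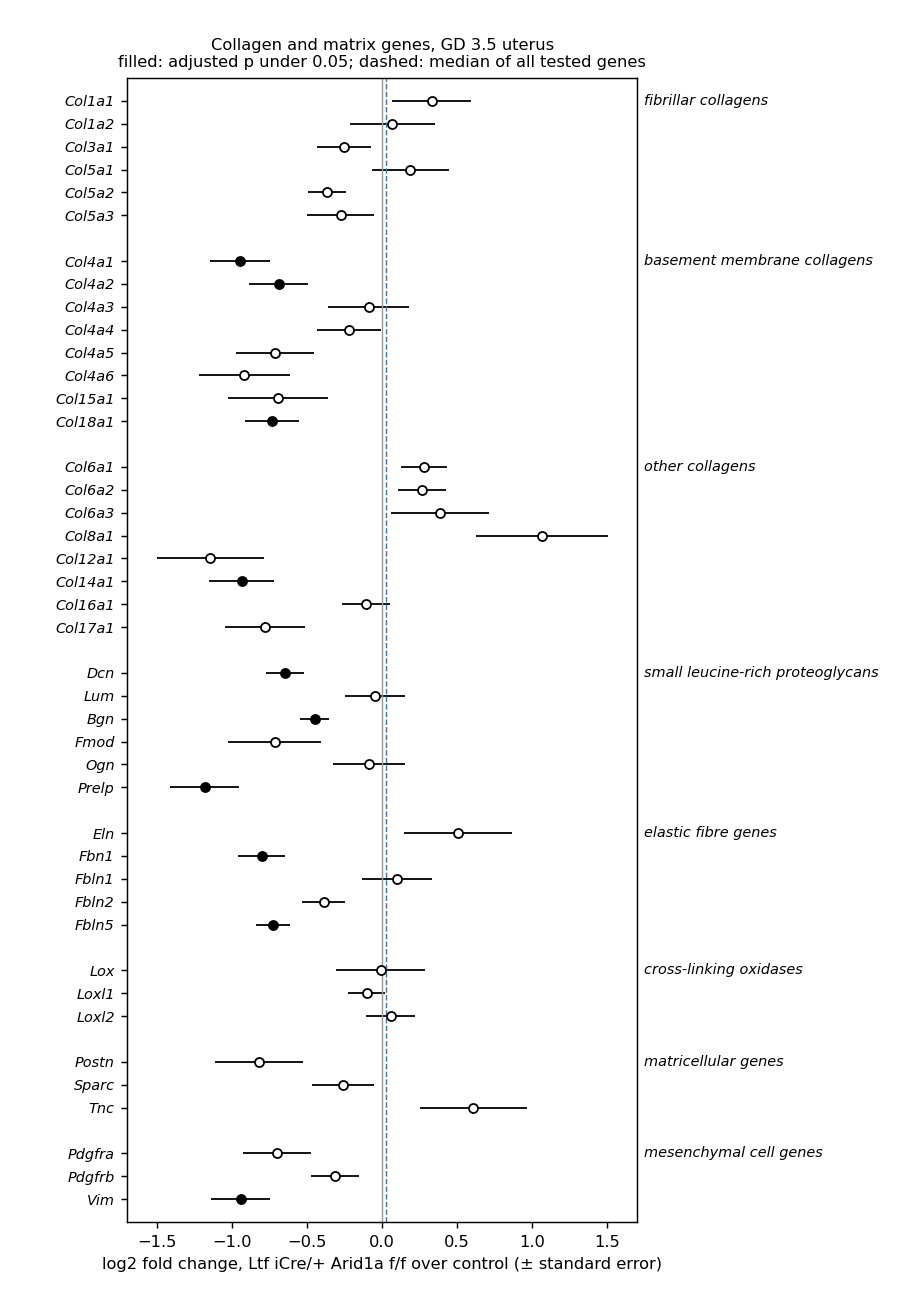
Log2 fold change between genotypes (x axis, with its standard error as a bar) for each of the 42 genes (y axis), ordered by group. Filled points have an adjusted p under 0.05, and the 10 of them lie at or below -0.45, while the 6 fibrillar collagens are open and scatter around 0. The dashed line is the median of all tested genes.

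Among the basement membrane collagens, 8 of 8 had negative log2 fold changes, with a median of -0.71, or -0.43 without cKO libraries 1 and 5. The 3 called lower were Col4a1, Col4a2 and Col18a1, and 5 of the 8 had genotypes that did not overlap. Over all tested genes 4.51% were called lower, and 5.16% had all cKO uteri below all controls. Col4a1 and Col4a2 encode the chains of the type IV network found in nearly every basement membrane, as a heterotrimer with 2 alpha 1 chains and 1 alpha 2 chain. In mouse these genes (ENSMUSG00000031502, chr8:11198423-11312826, minus strand, and ENSMUSG00000031503, chr8:11312805-11449287, plus strand, GRCm38) lie head to head. Their annotated 5′ ends overlap by 22 bases, shown here in capitals within chr8:11312801-11312830 (plus strand, RefSeq sequence of GRCm38.p6), so that a single stretch holds the start of both genes that fell.
Col4a1-Col4a2: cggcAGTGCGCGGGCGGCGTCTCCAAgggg
Col4a1 had 1359, 1420, 1891, 1073 and 1070 CPM in control uteri 1 to 5 and 889.6, 889, 662, 559 and 532 CPM in cKO uteri 1 to 5. Each cKO uterus lay below each control, and the gap between the groups was smaller than the spread within controls. Its mean level was 1363 ± 336 CPM in controls against 706 ± 174 CPM in cKO uteri (SD, n = 5 each), and the log2 fold change was -0.95 (SE 0.20, adjusted p = 0.0156), and it passed the threshold with any 1 of the 10 libraries left out.
Col4a2 had 849, 842, 1064, 619.5 and 570.0 CPM in control uteri 1 to 5 and 621, 587, 461, 376 and 397 CPM in cKO uteri 1 to 5. The groups met at the edge, since cKO uteri 1 and 2 were above control uterus 5. Its log2 fold change was -0.69 (SE 0.20, adjusted p = 0.0488), and the call was lost when any of 7 of the 10 libraries was left out (adjusted p from 0.0346 to 0.103 over the 10 fits), these being control uterus 1, 2, 3 or 4 and cKO uterus 3, 4 or 5. Without cKO libraries 1 and 5 together it was also lost, at -0.73 (adjusted p = 0.0555).

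Col4a5 and Col4a6, a second head-to-head pair on the X chromosome, encode the alpha 5 and alpha 6 chains, which form a network in basement membranes of smooth muscle and of some epithelia. Their starts, as annotated in GENCODE, are 1309 bases apart. The stretches just upstream of each start are given below in the direction of the gene, for Col4a5 at chrX:141475169-141475384 (plus strand) and for Col4a6 at chrX:141474077-141474326 (minus strand), both RefSeq sequence of GRCm38.p6. They are shown because the pair shared its pattern across uteri. Capitals mark CCAAT or GGGCGG, searched on both strands.
Col4a5: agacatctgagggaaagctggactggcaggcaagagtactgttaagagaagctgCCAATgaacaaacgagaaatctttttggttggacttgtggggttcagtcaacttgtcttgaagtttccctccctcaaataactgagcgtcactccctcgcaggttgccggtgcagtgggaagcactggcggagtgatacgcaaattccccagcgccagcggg
Col4a6: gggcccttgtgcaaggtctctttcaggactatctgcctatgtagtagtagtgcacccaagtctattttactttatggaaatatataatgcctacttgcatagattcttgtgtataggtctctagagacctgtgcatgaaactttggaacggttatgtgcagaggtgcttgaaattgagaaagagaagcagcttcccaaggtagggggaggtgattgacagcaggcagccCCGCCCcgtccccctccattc
Over 32851 windows of 250 bases before RefSeq starts, CCAAT was in 33.8%, GGGCGG in 32.7% and TATAAA in 12.4%. Of the 30 matrix genes that could be matched, CCAAT was listed for 11, GGGCGG for 16 and TATAAA for 6. The percentages count windows and the other figures count genes, which can have several windows, so they cannot be compared. Col4a5, for example, was listed for GGGCGG, which the stretch shown above does not hold. A match is a description of the sequence alone.
Col4a5 had 266, 294, 341, 268 and 353 CPM in control uteri 1 to 5 and 87.3, 242, 243, 229 and 126 CPM in cKO uteri 1 to 5. Uteri 1 and 5 of the cKO genotype were far below the rest, and the groups did not overlap.
Col4a6 had 179.6, 192, 192, 136 and 180.0 CPM in control uteri 1 to 5 and 37.4, 121, 122, 129 and 56.6 CPM in cKO uteri 1 to 5. Here too cKO uteri 1 and 5 were lowest, the other 3 cKO uteri lay just below control uterus 4, and the groups did not overlap. The log2 fold changes were -0.72 (SE 0.26, adjusted p = 0.103) for Col4a5 and -0.92 (SE 0.30, adjusted p = 0.0772) for Col4a6, neither past the threshold in edgeR, and both passed with DESeq2. Without cKO libraries 1 and 5, Col4a6 was called lower at -0.51 (adjusted p = 0.0193), and Col4a5 was not, at -0.36 (adjusted p = 0.0742).

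The third type IV pair, Col4a3 and Col4a4, is the one best known from the filter of the kidney glomerulus. Its levels were low, at 1.71 and 2.10 CPM per kb in controls, and the genotypes overlapped. Col4a3 ranged from 11.5 to 27.7 CPM in controls and from 9.59 to 21.9 CPM in cKO uteri, with a log2 fold change of -0.09 (SE 0.27, adjusted p = 0.877). Col4a4 ranged from 19.2 to 27.8 CPM in controls and from 10.04 to 25.9 CPM in cKO uteri, with a log2 fold change of -0.22 (SE 0.21, adjusted p = 0.561), or -0.06 without cKO libraries 1 and 5. A gene model on the opposite strand overlaps Col4a3, with at most 40 counts in a library against at least 663 for Col4a3.

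Col15a1 and Col18a1 encode the multiplexins, proteoglycan collagens at the stromal face of basement membranes, and the end of the Col18a1 product is the source of endostatin. Col18a1 (ENSMUSG00000001435, chr10:77052178-77166548, minus strand) had 749, 706, 759, 599.7 and 592 CPM in control uteri 1 to 5 and 251.5, 444, 527, 461 and 362 CPM in cKO uteri 1 to 5. No cKO uterus reached a control, and cKO uterus 1 was the lowest. Its mean was 681 ± 80.3 CPM in controls against 409 ± 106 CPM in cKO uteri (SD, n = 5 each), which is a log2 fold change of -0.74 (SE 0.18, adjusted p = 0.026). Without control uterus 1, 2 or 3 it fell short of the threshold (adjusted p from 0.0182 to 0.0666 over the 10 fits).
Col15a1 had 828, 802, 833, 756 and 849.7 CPM in control uteri 1 to 5 and 379.9, 616, 731, 640.3 and 141 CPM in cKO uteri 1 to 5. Controls lay close together and all cKO uteri were below them, and cKO uteri 1 and 5 were far below the other 3. The log2 fold change of -0.70 (SE 0.33, adjusted p = 0.211) did not pass the threshold, and without cKO libraries 1 and 5 it was -0.30 (adjusted p = 0.0801).

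Type IV chains also made up a smaller share of collagen transcripts in cKO uteri. Over the 22 collagen genes of the set, the 6 type IV genes made up 14.1%, 11.5%, 13.1%, 12.2% and 12.5% of the summed CPM per kb in control uteri 1 to 5. In cKO uteri 1 to 5 the share was 6.12%, 8.10%, 8.54%, 8.51% and 6.27%, so the highest cKO share was below the lowest control share. The summed level of all 22 was 2943 ± 592 CPM per kb in controls and 2859 ± 674 CPM per kb in cKO uteri (SD, n = 5 each), which overlap. The endothelial and pericyte sums given above also did not overlap between genotypes, and their part in the lower type IV, Col15a1 and Col18a1 levels was not tested.

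**Figure D2:**
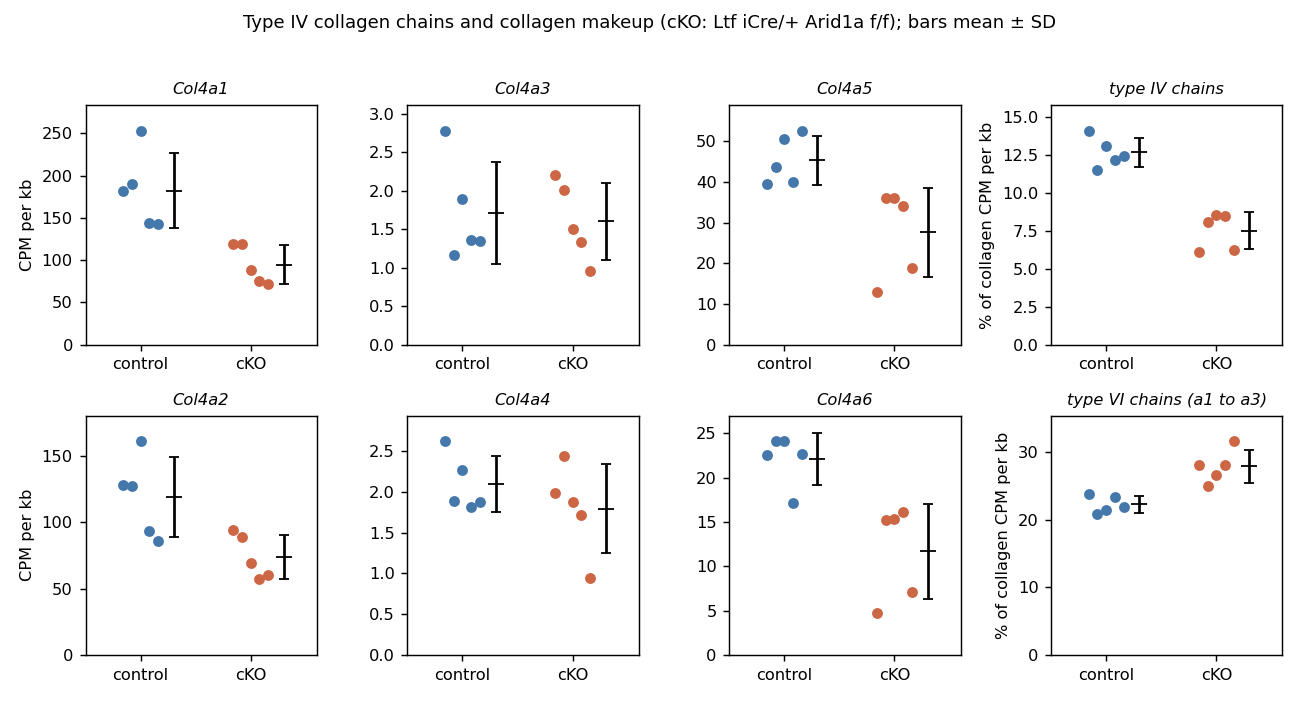
Levels of the 6 type IV chain genes in CPM per kb of exon (left 6 panels) and the percent of collagen CPM per kb in type IV and in type VI chains (right 2 panels). Points are uteri 1 to 5 from left and bars are mean ± SD. Col4a1, Col4a5 and Col4a6 separate the genotypes, the type IV share is 11.5% to 14.1% in controls and 6.12% to 8.54% in cKO uteri, and the type VI share is higher in cKO uteri.

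None of the 6 fibrillar collagens passed the threshold in edgeR, 3 were above and 3 below 0, and their median log2 fold change was -0.09, or -0.22 without cKO libraries 1 and 5. At an unadjusted p under 0.05 there was 1, Col5a2, which was also the 1 that DESeq2 called lower. Col1a1, the main chain of type I collagen, had 3298, 4472, 4786, 2772 and 2815 CPM in control uteri 1 to 5 and 7358, 5297, 3417, 2963 and 3756 CPM in cKO uteri 1 to 5. Uteri 1 and 2 of the cKO genotype exceeded every control, and the other 3 lay inside the control range. The log2 fold change of Col1a1 was 0.33 (SE 0.26, adjusted p = 0.483), or 0.10 without cKO libraries 1 and 5. Col1a2, its partner chain, ranged from 2854 to 4862 CPM in controls and from 2430 to 6469 CPM in cKO uteri, with a log2 fold change of 0.07 (SE 0.28, adjusted p = 0.914), which was -0.16 without both. Col3a1, the single chain of type III collagen that is plentiful in soft distensible tissue, ranged from 4732 to 8124 CPM in controls and from 4176 to 6087 CPM in cKO uteri, with a log2 fold change of -0.26 (SE 0.18, adjusted p = 0.42).
Type V collagen starts fibrils and sets their width, and its genes had values on both sides of 0. Col5a1 was at 0.19, Col5a2 at -0.37 and Col5a3 at -0.28 on the log2 scale, with adjusted p of 0.707, 0.0952 and 0.484, and without cKO libraries 1 and 5 Col5a1 was at -0.12. Col5a2 had 523, 707, 742, 513 and 582 CPM in control uteri 1 to 5 and 449.8, 547, 511, 438 and 432 CPM in cKO uteri 1 to 5, which overlap between 513 and 547 CPM. The bases before the start of Col3a1, which with Col1a1 had the highest collagen levels per kilobase in controls, are shown as the counterpart of the basement membrane genes (chr1:45311288-45311537, plus strand, RefSeq sequence of GRCm38.p6), with TATAAA in capitals.
Col3a1: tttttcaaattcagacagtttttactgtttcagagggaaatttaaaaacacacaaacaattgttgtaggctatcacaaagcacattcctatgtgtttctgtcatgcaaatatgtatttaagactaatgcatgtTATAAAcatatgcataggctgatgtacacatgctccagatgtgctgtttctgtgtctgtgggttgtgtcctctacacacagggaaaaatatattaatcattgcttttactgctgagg

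The other collagens went in both directions, with 4 of 8 lower and a median log2 fold change of 0.08, or -0.06 without cKO libraries 1 and 5. Col14a1 (ENSMUSG00000022371, chr15:55307750-55520803, plus strand), which encodes a fibril-associated collagen that binds decorin and fibril surfaces, was the 1 called. It had 139, 218, 286, 180.2 and 199 CPM in control uteri 1 to 5 and 134, 127, 89.3, 66.9 and 118 CPM in cKO uteri 1 to 5. The groups were separated by a narrow gap between control uterus 1 and cKO uterus 1. Its mean was 205 ± 54.3 CPM in controls against 107 ± 28.1 CPM in cKO uteri (SD, n = 5 each), for a log2 fold change of -0.94 (SE 0.22, adjusted p = 0.022), and the call was lost without control uterus 2 (adjusted p from 0.0134 to 0.0515 over the 10 fits).
Col12a1, a close relative in structure and place, had 55.1, 155, 149, 94.3 and 97.2 CPM in control uteri 1 to 5 and 23.1, 74.1, 73.1, 47.4 and 30.7 CPM in cKO uteri 1 to 5. Control uterus 1 fell among the cKO values and the log2 fold change of -1.15 (SE 0.36, adjusted p = 0.0649) did not pass, whereas DESeq2 called it lower. Without control uterus 1 it was called lower, and without cKO uterus 2 as well, and without cKO libraries 1 and 5 it was at -0.76 (adjusted p = 0.139). Col16a1, also a fibril-associated collagen, had a log2 fold change of -0.11 (adjusted p = 0.73).
The 3 type VI chain genes, whose products form beaded filaments close to cells, had log2 fold changes of 0.28 (adjusted p = 0.289) for Col6a1, 0.27 (adjusted p = 0.331) for Col6a2 and 0.39 (adjusted p = 0.513) for Col6a3, with none called. Col6a3 reached 1955 CPM in cKO uterus 1 and at most 1149 CPM in a control, and its log2 fold change was -0.02 without that uterus. The 3 values were 0.10, 0.11 and -0.04 without cKO libraries 1 and 5. As a share of collagen CPM per kb, type VI chains made up 20.8% to 23.8% in controls and 25.0% to 31.6% in cKO uteri, without overlap. Col8a1, expressed in vessel walls, had 4.68, 4.43, 5.66, 3.81 and 2.80 CPM in control uteri 1 to 5 and 7.15, 4.33, 5.48, 5.03 and 22.8 CPM in cKO uteri 1 to 5, and its log2 fold change of 1.07 (SE 0.44, adjusted p = 0.149) rested on cKO uterus 5, without which it was 0.36, and was 0.21 without cKO libraries 1 and 5. Col17a1, a transmembrane collagen of epithelial hemidesmosomes, was near 2 CPM in controls and had a log2 fold change of -0.78 (SE 0.27, adjusted p = 0.0909). It did not pass in edgeR, whereas DESeq2 called it lower.

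All 6 small leucine-rich proteoglycans had negative log2 fold changes, with a median of -0.55, and 3 were called lower with no overlap between genotypes. Decorin (Dcn, ENSMUSG00000019929, chr10:97479609-97518143, plus strand), which binds type I collagen and also growth factors of the TGF-beta family, had 1344, 1768, 1517, 1549 and 1831 CPM in control uteri 1 to 5 and 1093, 1177, 1055, 964 and 831 CPM in cKO uteri 1 to 5. The highest cKO uterus, 2, lay below the lowest control, 1. Its mean was 1602 ± 198 CPM in controls against 1024 ± 132 CPM in cKO uteri (SD, n = 5 each), giving a log2 fold change of -0.65 (SE 0.13, adjusted p = 0.0109).
Biglycan (Bgn, ENSMUSG00000031375, chrX:73483602-73495933, plus strand), its closest relative, had 376, 503, 444, 371 and 381 CPM in control uteri 1 to 5 and 296, 316, 299, 292 and 315 CPM in cKO uteri 1 to 5. The cKO values lay within a narrow band under all controls. Its log2 fold change was the smallest of the 10 called, at -0.45 (SE 0.10, adjusted p = 0.0182).
Prelp (ENSMUSG00000041577, chr1:133910304-133921414, minus strand), a proteoglycan family member that links collagen to the heparan sulfate of basement membranes, had 66.1, 131, 102, 77.1 and 66.2 CPM in control uteri 1 to 5 and 41.4, 57.0, 28.8, 32.7 and 34.5 CPM in cKO uteri 1 to 5. It was lower in each cKO uterus than in each control, and lowest in cKO uterus 3. Its log2 fold change of -1.19 (SE 0.23, adjusted p = 0.0102) was the largest among the 42 genes. These 3 calls held with any 1 library left out, and in those fits Prelp stayed from -1.37 to -1.01. A gene model on the opposite strand of Prelp had at most 12 counts in a library, against at least 1760 for Prelp.
Lumican (Lum), osteoglycin (Ogn) and fibromodulin (Fmod) were not called. Lum ranged from 335 to 607 CPM in controls and from 313 to 622 CPM in cKO uteri, with a log2 fold change of -0.05 (SE 0.20, adjusted p = 0.912), and Ogn ranged from 151 to 212 CPM in controls and from 97.5 to 249 CPM in cKO uteri, with a log2 fold change of -0.09 (SE 0.24, adjusted p = 0.865). In both, cKO uterus 1 was above all controls and cKO uterus 4 below them, and Lum was at -0.24 without cKO libraries 1 and 5. Fmod had a log2 fold change of -0.72 (SE 0.31, adjusted p = 0.17), with 4.37 CPM in cKO uterus 5 and 9.65 CPM or more elsewhere.

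**Figure D3:**
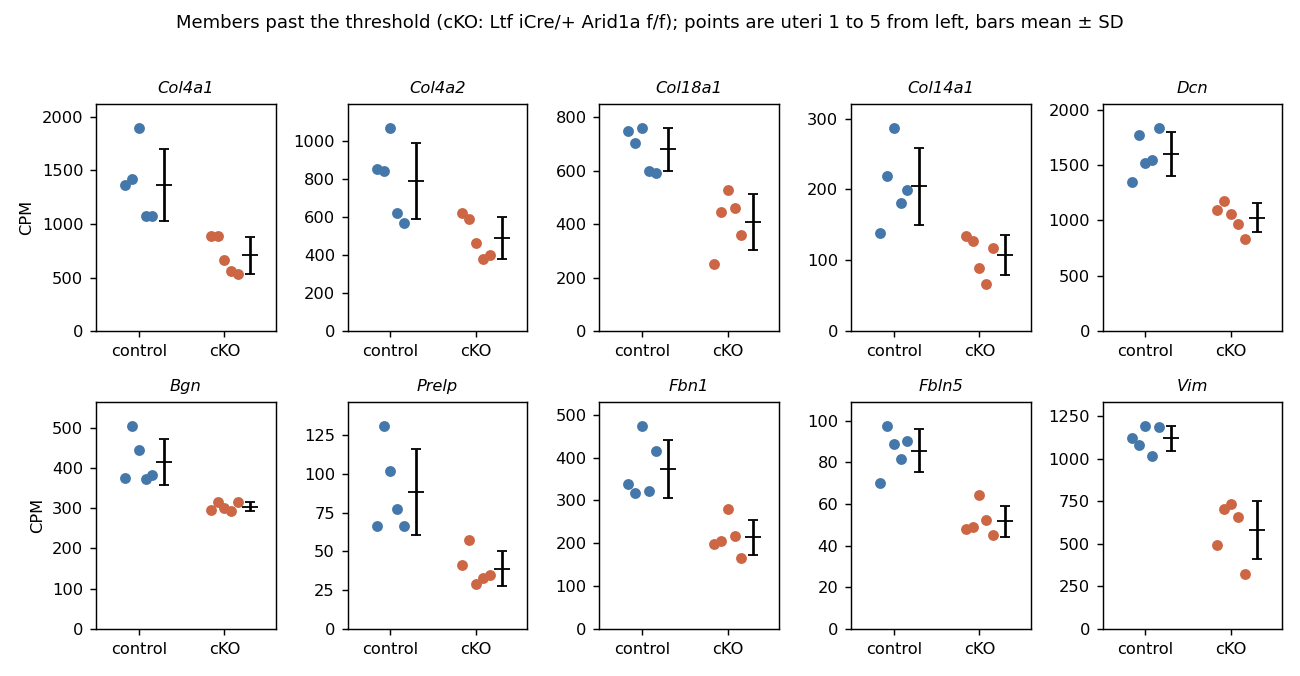
CPM of the 10 genes called lower, 1 panel per gene, with uteri 1 to 5 from left in each genotype and bars for mean ± SD. In 9 panels every cKO point is below every control point, and in the panel of Col4a2 they overlap.

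Of the 5 elastic fibre genes 2 were called, both lower, and the median log2 fold change was -0.39, or -0.59 without cKO libraries 1 and 5. Fibrillin 1 (Fbn1, ENSMUSG00000027204, chr2:125300594-125507993, minus strand), the main protein of microfibrils, had 338, 318, 473, 323 and 415 CPM in control uteri 1 to 5 and 199, 206, 280.0, 218 and 165 CPM in cKO uteri 1 to 5. The cKO uteri lay below every control, with cKO uterus 3 nearest to them. Its mean was 373 ± 68.2 CPM in controls against 214 ± 41.9 CPM in cKO uteri (SD, n = 5 each), that is, a log2 fold change of -0.81 (SE 0.16, adjusted p = 0.0102). A gene model on the opposite strand had at most 29 counts in a library, against at least 11426 for Fbn1.
Fibulin 5 (Fbln5, ENSMUSG00000021186, chr12:101746565-101819055, minus strand), which tethers elastin to microfibrils and to cell surface integrins, had 70.1, 97.3, 88.8, 81.7 and 90.1 CPM in control uteri 1 to 5 and 48.0, 49.1, 64.1, 52.4 and 45.1 CPM in cKO uteri 1 to 5. Again the groups did not overlap and cKO uterus 3 was the closest to controls. Its log2 fold change of -0.73 (SE 0.11, adjusted p = 0.00403) had the lowest adjusted p of the 42 genes. Both Fbn1 and Fbln5 held their calls with any 1 library left out.
Elastin (Eln) had 89.6, 61.2, 115, 56.1 and 45.7 CPM in control uteri 1 to 5 and 189.6, 138, 54.4, 60.6 and 79.1 CPM in cKO uteri 1 to 5. Uteri 1 and 2 of the cKO genotype were above all controls and the other 3 were inside the control range, with a log2 fold change of 0.51 (SE 0.36, adjusted p = 0.421), or 0.20 without cKO libraries 1 and 5. The log2 fold change was 0.10 (SE 0.23, adjusted p = 0.838) for fibulin 1 (Fbln1) and -0.39 (SE 0.14, adjusted p = 0.111) for fibulin 2 (Fbln2), both matrix proteins that bind microfibril components. Fbln2 was called lower without cKO uterus 1, and also without cKO uteri 1 and 5, at -0.59 (adjusted p = 0.0139), where Fbln1 was at -0.30.

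Genes of cross-linking and of matricellular proteins were not called by edgeR in any of 6 cases. The lysyl oxidases Lox, Loxl1 and Loxl2, which oxidize lysines in collagen and elastin, had log2 fold changes of -0.01 (adjusted p = 0.988), -0.10 (adjusted p = 0.657) and 0.06 (adjusted p = 0.874), with 0 at an unadjusted p under 0.05 and 0 by DESeq2. Lox ranged from 74.7 to 121 CPM in controls and from 47.7 to 161 CPM in cKO uteri, and its cKO values fell on both sides of the controls. Without cKO libraries 1 and 5, Lox, Loxl1 and Loxl2 were at -0.55, -0.29 and 0.16, with none called.
Periostin (Postn), a matricellular protein that helps collagen to mature, had 361, 458, 591, 335 and 442 CPM in control uteri 1 to 5 and 140.2, 451, 225, 266 and 156 CPM in cKO uteri 1 to 5. Uteri 1, 3, 4 and 5 of the cKO genotype lay below all controls and cKO uterus 2 lay among them, with a log2 fold change of -0.82 (SE 0.29, adjusted p = 0.101). It was the 1 matricellular gene at an unadjusted p under 0.05, the 1 called lower by DESeq2, and it was called lower by edgeR without cKO uterus 2, but not without cKO uteri 1 and 5, at -0.48 (adjusted p = 0.246). Sparc had a log2 fold change of -0.26 (SE 0.21, adjusted p = 0.479). Tenascin C (Tnc), a glycoprotein of remodeling and inflamed stroma, ranged from 27.2 to 64.0 CPM in controls and from 43.3 to 154 CPM in cKO uteri, and cKO uterus 5 alone was above the highest control. Its log2 fold change was 0.61, or 0.03 without cKO libraries 1 and 5. That uterus also had the neutrophil markers at 855.3 CPM in sum, and their part in its Tnc and Col8a1 levels was not tested.

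The 3 mesenchymal cell genes had negative log2 fold changes, with a median of -0.70, and 1 was called. Vimentin (Vim, ENSMUSG00000026728, chr2:13573927-13582826, plus strand), the intermediate filament of fibroblasts, endothelial cells and leukocytes, had 1121, 1083, 1192, 1019 and 1188 CPM in control uteri 1 to 5 and 493, 707, 732, 657 and 321 CPM in cKO uteri 1 to 5. Controls were tightly grouped, no cKO uterus came near them, and cKO uteri 5 and 1 were lowest. Its mean was 1120 ± 73 CPM in controls against 582 ± 173 CPM in cKO uteri (SD, n = 5 each), and its log2 fold change was -0.94 (SE 0.20, adjusted p = 0.0139), and the call held with any 1 library left out.
Pdgfra, the PDGF receptor of fibroblasts, had 542, 537, 534, 602 and 725 CPM in control uteri 1 to 5 and 180.4, 339, 504, 444 and 342 CPM in cKO uteri 1 to 5. The groups did not overlap, with cKO uterus 1 lowest and cKO uterus 3 close to the controls, and the log2 fold change of -0.70 (SE 0.23, adjusted p = 0.0735) did not pass in edgeR but passed with DESeq2, and was -0.46 without cKO libraries 1 and 5. Pdgfrb, the receptor of pericytes and smooth muscle, had 147, 142, 146, 122 and 113 CPM in control uteri 1 to 5 and 102, 90.2, 95.1, 89.9 and 161 CPM in cKO uteri 1 to 5. Uterus 5 of the cKO genotype was above all controls and the other 4 were below them, with a log2 fold change of -0.32 (SE 0.16, adjusted p = 0.246), and without that uterus Pdgfrb was called lower, as it was without cKO libraries 1 and 5, at -0.55 (adjusted p = 0.00805). The endothelial, pericyte and stromal marker sums were also lower in cKO uteri, as given above, and their part in the levels of Vim, Pdgfra and Pdgfrb was not tested.

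Ratios within a library do not depend on library scaling, so partner chains were also compared as log2 ratios of counts. Col1a1 over Col1a2 was -0.14 to 0.09 in controls and 0.16 to 0.29 in cKO uteri, a mean difference of 0.28 with no overlap. The ratio of Col1a1 to Col3a1 was higher than in any control in 4 of 5 cKO uteri, with a mean difference of 0.52. For Col4a1 over Col4a2, the head-to-head pair, values of 0.68 to 0.91 in controls and 0.42 to 0.60 in cKO uteri did not overlap, and the mean difference was -0.27.
Col4a3 over Col4a4 overlapped, with a mean difference of 0.20, and Col4a5 over Col4a6 was above all controls in 4 of 5 cKO uteri, with a mean difference of 0.25. Lumican over decorin was above all controls in 4 of 5 cKO uteri, by 0.59 in the mean. Another 4 ratios were added after the values had been seen. Col4a1 over Col1a1 was -1.66 to -1.28 in controls and -3.05 to -2.37 in cKO uteri, and Col4a1 over Col3a1 was -2.39 to -1.80 and -3.27 to -2.62, both without overlap. Decorin over Col1a1 differed by -0.93 in the mean and Fbn1 over Eln by -1.22, each with 4 of 5 cKO uteri below all controls.

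**Figure D4:**
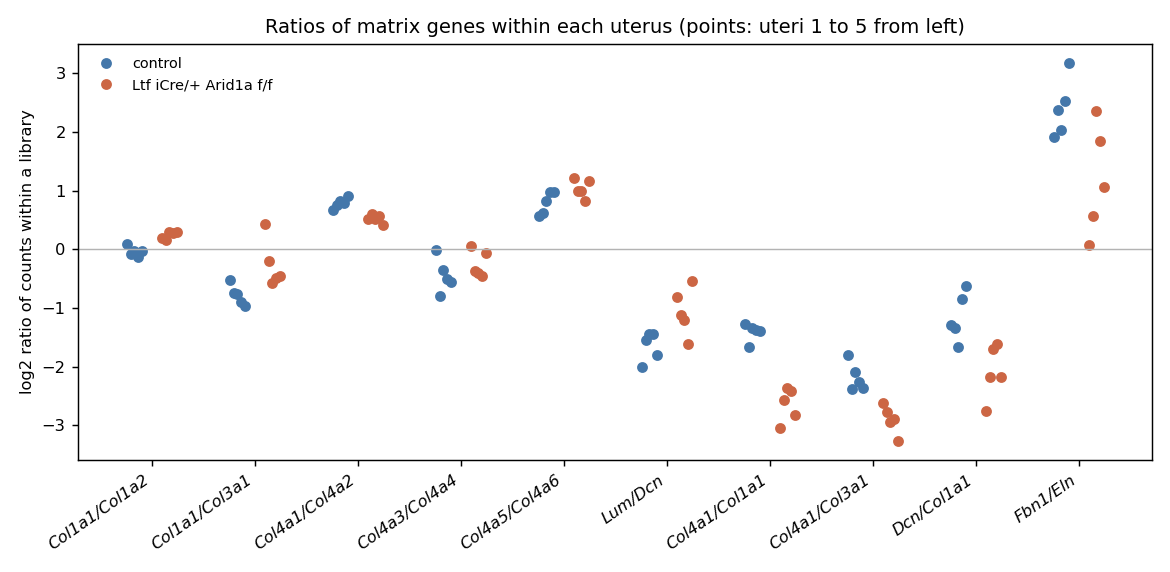
Log2 ratio of the counts of 2 matrix genes within each library (y axis) for 10 pairs (x axis), with points for uteri 1 to 5 from left in each genotype. The genotypes are apart for Col1a1/Col1a2, Col4a1/Col4a2, Col4a1/Col1a1 and Col4a1/Col3a1, and overlap in the other pairs.

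The cKO uteri differed among themselves in which genes left the control range. In cKO uterus 1, 12 of the 42 genes were above every control and 17 below, where 30.5% and 27.0% of all tested genes were. The share above was thus no greater than over all tested genes. The 12 were Col1a1, Col1a2, Col5a1, Col6a1, Col6a2, Col6a3, Col8a1, Lum, Ogn, Eln, Fbln1 and Lox. In cKO uterus 2 there were 4 above and 16 below (24.2% and 21.7% of all tested genes).
In cKO uterus 3, 0 genes were above and 25 below (24.5% and 19.9%), and in cKO uterus 4, 0 were above and 32 below (27.3% and 22.7%). Uterus 5 of the cKO genotype had 7 above, namely Col6a1, Col8a1, Fbln1, Lox, Loxl1, Tnc and Pdgfrb, and 27 below (29.0% and 26.1%). The 12 genes, picked by their level in cKO uterus 1, lay within or below the control range in cKO uteri 3 and 4. Of the 10 called genes, 9 were below every control in each of the 5 cKO uteri.

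**Figure D5:**
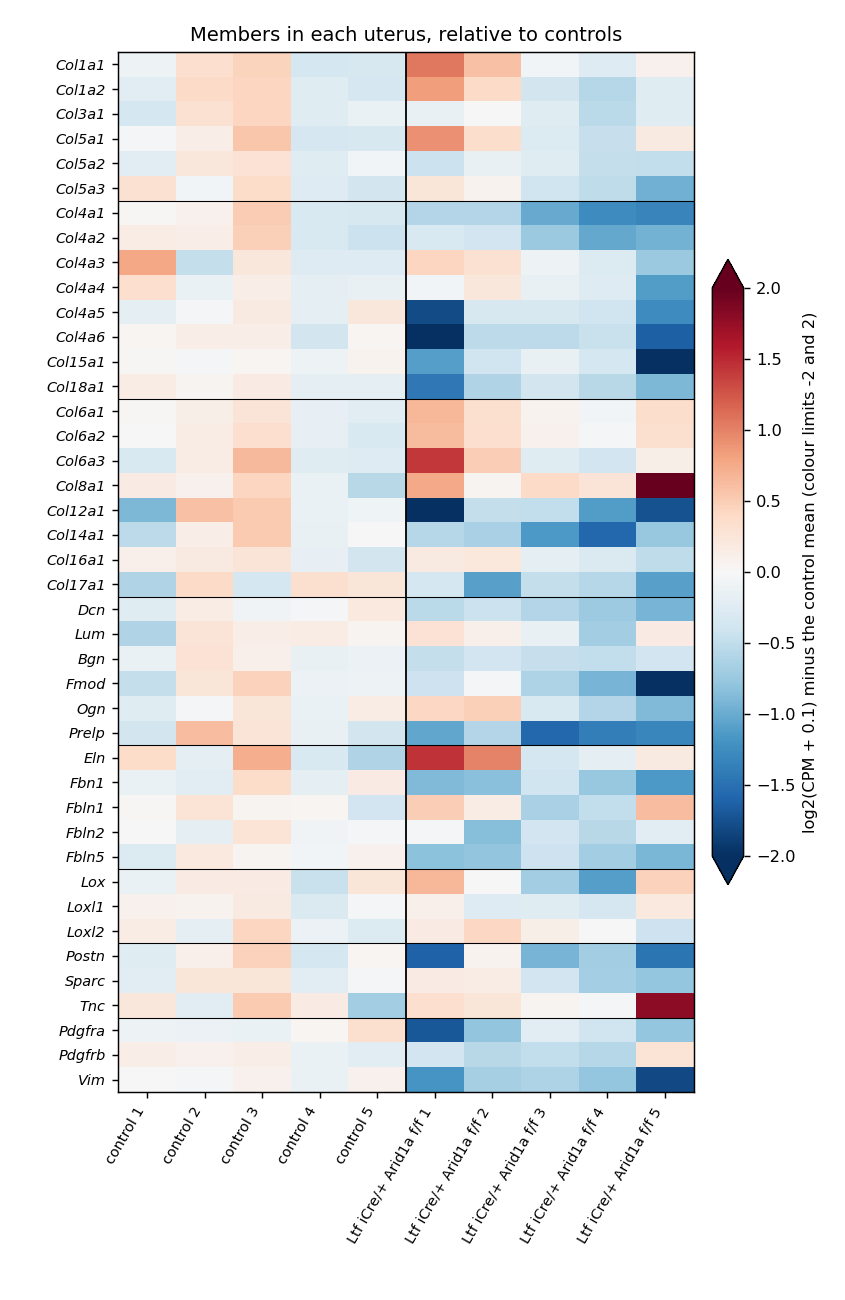
Each of the 42 genes (rows, grouped by lines) in each of the 10 uteri (columns), as log2(CPM + 0.1) minus the mean of the controls, with blue below and red above and colours ending at -2 and 2. The rows of Col4a1, Dcn, Prelp, Fbn1, Fbln5 and Vim are blue across the 5 cKO uteri, while rows such as Col1a1, Col6a3 and Eln are red in cKO uterus 1 and pale or blue in cKO uteri 3 and 4.

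Other genes of the matrix were taken from lists. Of 24 genes that synthesize, fold, trim or export collagen, such as prolyl hydroxylases and procollagen proteinases, 0 were called in edgeR, with 3 lower and 2 higher at an unadjusted p under 0.05, and DESeq2 called 1 lower and 1 higher. Their median log2 fold change was -0.00.
Of 22 collagens outside the set, 3 were called lower and 5 higher, where 4.51% and 5.19% of all tested genes were. Col28a1, a beaded collagen best known from peripheral nerve, had 7.33, 11.5, 8.40, 7.92 and 6.65 CPM in control uteri 1 to 5 and 0.706, 2.10, 0.785, 0.726 and 0.260 CPM in cKO uteri 1 to 5, with no overlap and a log2 fold change of -3.19 (SE 0.45, adjusted p = 0.00235). Col20a1 (-0.997) and Col23a1 (-1.76) were the others that fell. Col10a1, Col28a1 and Col6a5 had the largest absolute changes of the 8 called, and the rest of the 8 are named after their values were seen. Among those called higher, the type VI chain genes Col6a4 (1.30), Col6a5 (1.96) and Col6a6 (1.59) were each higher in every cKO uterus than in any control. Col6a4 had 476, 370.5, 424, 327 and 298 CPM in control uteri 1 to 5 and 1522, 797, 607, 499 and 1239 CPM in cKO uteri 1 to 5. It was highest in cKO uteri 1 and 5. Without these libraries Col6a4, Col6a5 and Col6a6 were at 0.74, 0.62 and 0.79, and Col6a5 was no longer called (adjusted p = 0.0962), nor was Col20a1 (-0.75, adjusted p = 0.085). Col7a1, the anchoring fibril collagen of epithelial basement membranes, rose by 0.82. Col10a1 had at most 1 count in a control library and 1 to 13 counts in cKO libraries. Its mean cKO level was 2.34 times a floor of 3 counts per control library. The lowest cKO library, at 1 count, lay under that floor, so the size of the change is uncertain. These counts rested on single libraries, since 0, 2, 2 and 3 were called higher without control uterus 2, 3, 4 and 5, and 1 was called lower when any 1 of these 4 controls, or cKO uterus 2 or 5, was left out.
Of 33 other matrix proteins, 9 were called lower and 4 higher, against the same 4.51% and 5.19% of all tested genes. Their median was -0.32, or -0.28 without Epyc, whose levels were too low for a fold. The largest changes were Ltbp2, a microfibril-bound protein (3.62, at 16.6 CPM in cKO uterus 1, 82.3 CPM in cKO uterus 5 and at most 2.89 CPM elsewhere), Has3, a hyaluronan synthase (-1.53), and Tgfbi, a collagen-binding adhesion protein (1.45). Ltbp2 was called in 3 of the 10 fits that left out 1 library, at 1.77 in the lowest, and without cKO libraries 1 and 5 it was not called, at 0.42 (adjusted p = 0.285). Some further genes were picked after their values were seen, because they sit beside the genes above in the matrix. Fibronectin (Fn1), an early scaffold on which collagen is laid down, was called lower with a log2 fold change of -0.70 (SE 0.14, adjusted p = 0.0132). The nidogens, which join the laminin and type IV collagen networks, were called lower at -0.60 (SE 0.17, adjusted p = 0.0498) for Nid1 and -0.63 (SE 0.16, adjusted p = 0.0325) for Nid2. Mfap5, a partner of fibrillin in microfibrils, was called lower at -0.63 (SE 0.12, adjusted p = 0.0106). The calls of Nid1 and Nid2 held in 2 and 4 of the 10 fits that left out 1 library, and not without cKO libraries 1 and 5 (-0.43 and -0.45). The values of these 4 genes did not overlap between genotypes. Ltbp4, of the same family as Ltbp2, was also called lower at -0.67 (SE 0.19, adjusted p = 0.0486), without overlap. Its call held in 1 of the 10 fits that left out 1 library, and without cKO libraries 1 and 5 (-0.55, adjusted p = 0.0393). Some other listed genes of microfibrils and basement membranes were not called lower. Mfap4 was called higher at 0.71 (SE 0.19, adjusted p = 0.0409), but not without cKO libraries 1 and 5 (0.36, adjusted p = 0.111). Mfap2 (-0.005), Fbn2 (-0.04) and Hspg2 (-0.14) were not called, and Mfap2 and Fbn2 were at -0.01 and -0.27 without both libraries. With any 1 control left out, or cKO uterus 1, 1 of the 33 was called higher, and 4 or 5 were called lower without control uterus 1, 2 or 3 or cKO uterus 4.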

How the data were processed

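The authors sequenced 50 bp, paired end mRNA libraries of 10 GD 3.5 uteri. Per the labels and the study's methods they trimmed reads with cutadapt 1.18 and Trim Galore 0.6.4, aligned them to GRCm38 with STAR 2.7.3a and deposited its raw counts per gene. Neither the annotation release nor whether reads were counted by strand is given in the sources used here, and a gene that overlaps one on the opposite strand may hold its reads.

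The 42 genes, the 3 lists of related matrix genes and the 10 marker lists were written from general knowledge with earlier results of these data known. Identifiers were matched to GENCODE symbols (45143 of 45706), which also gave coordinates and exon lengths. The named genes were the 42, with the value in each uterus for genes past the threshold or without overlap, or where a group comparison needed them (Col1a1, Col5a2, Col12a1, Col8a1, Eln, Postn and Pdgfrb, picked after their values were seen), Arid1a and Ltf, and from each list up to 3 genes of largest absolute change past the threshold. Other listed genes were named after their values were seen. Genes that averaged 1 count or more across libraries were tested with edgeR 4.0.16 in R 4.3.3 (TMM, quasi-likelihood test of genotype, Benjamini-Hochberg adjustment over 25146 genes, threshold 0.05), which is the source of each adjusted p and standard error. Depth was 59296537 to 72702411 counts, and intervals between uteri include counting error. Each gene was also tested by a two-sided exact permutation of log2(CPM + 0.1) over 252 arrangements, whose smallest p is 0.00794. All 13 genes without overlap had this p, which the lack of overlap fixes in advance, so it adds nothing to it. Alternatives were DESeq2 1.42.0, other scalings and filters, the replicate number as a block, and omitted uteri. In simulated counts with 200 changed genes among 24661, edgeR recovered 86.0% and called 8 unchanged genes, while DESeq2 recovered 93.0% and called 72 unchanged genes. The changed genes were well-expressed ones given log2 fold changes of at least 1 in size, with the same dispersion in both genotypes. The recovered shares therefore do not measure power for smaller changes, such as most of those among the 42 genes. Duplicate libraries were checked for, and the lowest chi-square of a pair was 36.1 per gene. Promoter sequences came from RefSeq (GRCm38.p6), with 30 of the 42 genes matched, and figures were drawn with matplotlib 3.10.9.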

Additional observations from a re-analysis of the deposited data

Results flagged for a closer look

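Single uteri stood far from the rest of their genotype in 4 of the 84 groups of 5 values (42 genes in 2 genotypes), by Dixon's ratio with a critical value of 0.71, and chance alone gives about 4.2. Col4a6 was at 136.0 CPM in control uterus 4, below the next control at 179.6 CPM, and the cKO values still lay below it. Lum was at 334.8 CPM in control uterus 1, below the next at 524.2 CPM. Tnc was at 154.0 CPM in cKO uterus 5, against 55.8 CPM in the next cKO uterus, and Pdgfrb was at 160.8 CPM in the same uterus, against 101.8 CPM. Both of the cKO values thus came from uterus 5, and without it Pdgfrb was called lower in the cKO genotype, while the log2 fold change of Tnc was 0.10.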

How the results depend on the processing

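None of the calls among the 42 genes changed direction under the alternatives run. The 10 calls were the same with DESeq2 size factors, upper-quartile factors or edgeR's filterByExpr, and without a filter Col4a2 was lost. DESeq2 called 17 of the 42 genes lower and 4103 genes in all, and in simulated counts it called 72 unchanged genes where edgeR called 8. Those counts were drawn with dispersions estimated by edgeR, the same in both genotypes. They therefore cannot show how many of the further DESeq2 calls in these data are false. With each uterus left out in turn, 7 to 12 of the 42 were called lower and 0 higher, and 1204 to 2381 genes in all, with 1204, 1248 and 1414 without control uterus 2, 3 or 4. Of the genes of collagen synthesis, 1 was called lower with upper-quartile factors, 1 lower and 1 higher with DESeq2 and without cKO uteri 1 and 5, and 0 to 1 in each direction over the omissions of 1 uterus (the 1 without cKO uterus 5). Of the collagens outside the set, 5 were called lower with DESeq2, 1 to 3 lower over the omissions (1 without control uterus 2, 3, 4 or 5 or cKO uterus 2 or 5) and 0 to 6 higher (0, 2, 2 and 3 without control uterus 2, 3, 4 and 5). Other matrix proteins had 4 to 9 lower calls over the omissions (5, 4, 4 and 4 without control uterus 1, 2 or 3 or cKO uterus 4) and 1 to 4 higher calls (1 without any 1 control or cKO uterus 1, 2 without cKO uterus 3 or 5), and 1 higher without cKO uteri 1 and 5 together. The median of the cross-linking oxidases moved from -0.01 to -0.29 without cKO uteri 1 and 5, that of the basement membrane collagens from -0.71 to -0.43, of the fibrillar collagens from -0.09 to -0.22, of the other collagens from 0.08 to -0.06 and of the elastic fibre genes from -0.39 to -0.59. The cause of these moves was not tested.

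Replicate numbers did not pair the samples. Deviations of same-numbered uteri correlated at 0.05, 0.11, -0.20, 0.05 and 0.20, and 1 of the 5 cKO uteri correlated best with the control of its own number. With the replicate number as a block, 11 of the 42 genes were called lower (Col12a1 in addition) and 0 higher, 1704 genes in all, and 1 of the other matrix proteins was called higher in place of 4.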
